A study of Mus musculus with 7 samples.

Results

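The genes described here encode the proteins of the cytosolic ribosome in mouse oocytes. They were taken by symbol (Rpl or Rps with a number and, where present, a paralog suffix, Rplp0 to Rplp2, and Rpsa), with names ending in -ps and numbered Gm pseudogenes left out. The rule found 86 genes among the 22877 in the deposited table, of which 30 encode 40S proteins, 43 encode 60S proteins, 3 encode the P-stalk and 10 are paralogs of another ribosomal protein gene. The rule itself used no measured value, though earlier results of these data were known when the genes were chosen. Rps3a (listed as Rps3a1) and Fau lie outside the rule, and Rpl3l was not analysed here.

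RNA was sequenced from oocytes of secondary follicles, taken from 8-week-old C57BL/6J mice that were either Mfn1-/- females or their wild-type (WT) littermates, whose exact alleles are not given in the sources used here. Mfn1 encodes mitofusin 1, a GTPase of the outer mitochondrial membrane needed for mitochondrial fusion. The Mfn1-/- mice are Mfn1 fl/fl with Zp3-Cre, which is expressed from the zona pellucida 3 promoter in growing oocytes, so the granulosa cells around the oocyte keep Mfn1 and the oocyte loses it only after growth begins. The labels give 4 WT and 3 Mfn1-/- libraries, each of 5 pooled oocytes, and the study's text gives 3 for each. The values below are the authors' means of normalized counts per genotype. They carry no SD, no depth per library and no test, so every difference is a difference between 2 means whose replicate error was not available here. Levels of different genes are set side by side on the deposited scale. Its unit is not named, but its lowest values shrank with transcript length, as they would after division by length.

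The ribosome is built from a small 40S subunit, which reads the mRNA, and a large 60S subunit, which joins amino acids. Each ribosomal protein is needed in about equal amounts, and most are made from mRNAs that begin with a 5′ terminal oligopyrimidine (TOP) tract, through which translation answers to mTOR signaling. A growing oocyte builds up a large store of ribosomes and of ribosomal protein mRNA for use after fertilization. Ribosomal protein genes have left many processed pseudogenes, which are copies of the mRNA put back into the genome.

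The first bases of the mRNA were examined first, because the TOP tract is the feature that ties these genes together. A tract was counted where a C lay within 5 bases of the RefSeq start and was followed by at least 4 bases that were each C or T, on the sense strand. RefSeq promoters (GRCm38.p6) were matched by symbol for 64 of the 86 genes. A tract was found in 31 of these (48.4%), against 23.1% of 3868 genes expressed at a mean of 1 or more and 21.2% of all 27025 genes with a promoter. In the windows below, of 25 bases from 5 before the annotated start, capitals mark the tract. They are shown for the genes with the lowest fold changes (Rps23 and Rpl22l1), for Rpl32l, which had the second highest, for Rps27 and its paralogs Rps27rt and Rps27l, and for the members Rpl27a and Rps6, with the longest tract and the S6 kinase substrate.
Rps23, chr13:90923117-90923141, plus strand: gggcggggCTTCCCgcaatgccttg
Rpl22l1, chr3:28805503-28805527, plus strand: agcccgttCTCTTCCCacggctgca
Rpl32l, chr10:20208434-20208458, plus strand: accagCTTCTTCCTTggtgctgcct
Rps27rt, chr9:114982720-114982744, minus strand: ccttgCTTTCCggcggtgacgacct
Rps27, chr3:90213629-90213653, minus strand: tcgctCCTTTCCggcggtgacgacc
Rps27l, chr9:66946081-66946105, plus strand: ccgccgCCTCTatcccggaagttgc
Rpl27a, chr7:109519190-109519214, plus strand: gctcCTCCCTTTTCCCTTTCTgcca
Rps6, chr4:86857348-86857372, minus strand: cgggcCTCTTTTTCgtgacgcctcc

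Rps27rt and Rps27 shared the run after the tract, and both genes with the lowest fold changes carried one. The median log2 fold change, Mfn1-/- over WT after adding 0.1 to each mean, was 0.28 in the 31 genes with a tract and 0.26 in the 33 without. A match describes the letters of the window and does not show that a start is used in oocytes.

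Most ribosomal protein genes had a slightly higher mean in Mfn1-/- oocytes than in WT oocytes. The Mfn1-/- mean was the higher one for 73 of the 86 genes (84.9%), and lower for 13. The same held for 56.7% of all genes and for 65.9% of the 6255 expressed genes, meaning those whose average over both genotypes was 1 or more. The 86 genes had a median log2 fold change of 0.27 and the expressed genes a median of 0.16, so part of the difference was shared by expressed genes. Taken relative to that median, 64 of the 86 genes lay above it and 22 below. Scaling both genotypes to the same sum gave 67 higher and 19 lower. More RNA per oocyte and a change in which transcripts make it up cannot be told apart in these bulk libraries.

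The genes differed less from each other than expressed genes did. Their log2 fold changes had an interquartile range of 0.16 to 0.37, a width of 0.21, against a width of 0.55 for expressed genes. Within 0.25 of their own median lay 82.6% of the ribosomal protein genes and 46.7% of expressed genes. The width was also narrower at each level of WT mean. It was 0.18 against 0.42 at 20 or more, 0.24 against 0.51 from 5 to 20, and 0.10 against 0.62 below 5. The last pair is of unlike sets, since 0.10 also covers ribosomal protein genes that were not expressed and 0.62 covers expressed genes only. Of the 27 genes with a WT mean of 20 or more, 25 had a higher Mfn1-/- mean, with a median log2 fold change of 0.27, beside 0.15 for all 1081 genes at that level. For WT means from 5 to 20 the counts were 35 of 42, with a median of 0.25 beside 0.16. Below a WT mean of 5 they were 13 of 17, with a median of 0.30 beside 0.17 in expressed genes. Of these 17 genes 11 were themselves expressed, of which 9 had the higher Mfn1-/- mean, with a median of 0.33. The WT level and the log2 fold change were not ordered together (Spearman's rho of 0.02 across the 86 genes, which share the same libraries).

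**Figure D1:**
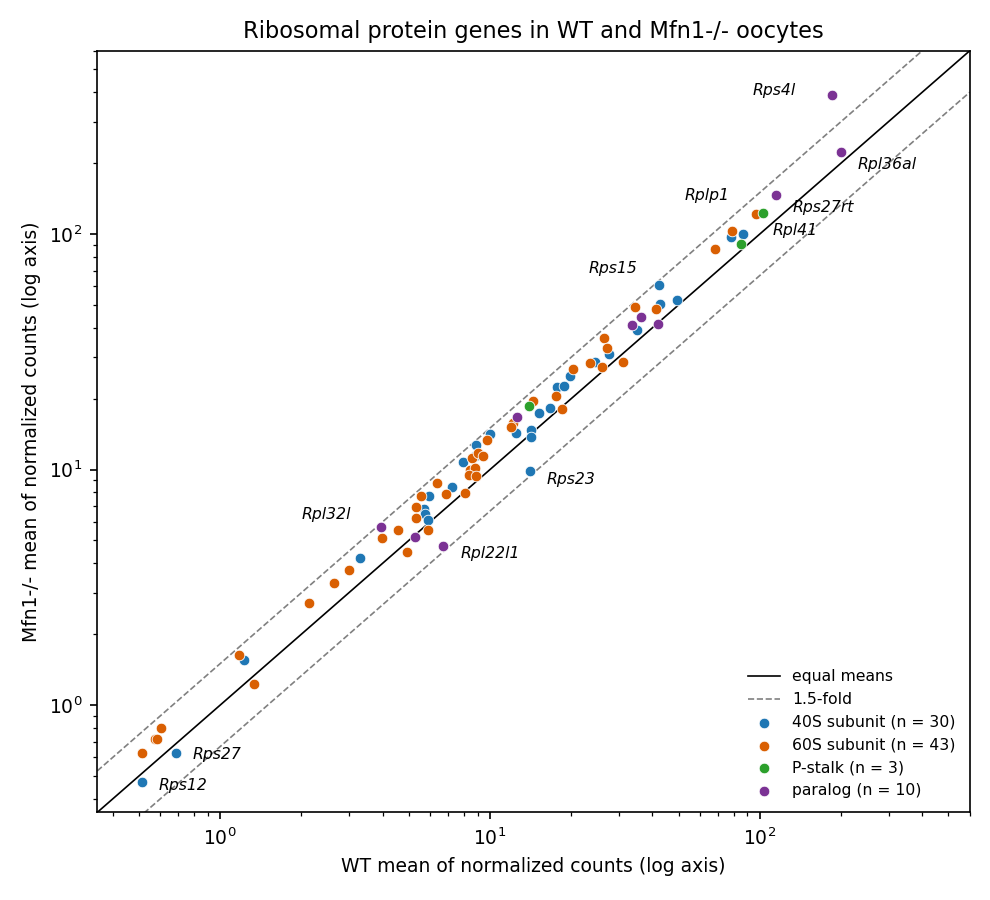
Mean of normalized counts in Mfn1-/- oocytes against that in WT oocytes for the 86 genes, both on log axes, with 1 point per gene colored by group; the solid line marks equal means and the dashed lines 1.5-fold. Most points lie just above equality. The points run from Rps12 (0.472 and 0.513), which lies just below it, to Rpl36al (223 and 200), and Rps4l (389 and 185) is the point outside the dashed lines.

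A difference past 1.5-fold was found for 1 gene, Rps4l, and no gene was lower by that much. Among expressed genes, 15.9% were past 1.5-fold higher and 7.48% past 1.5-fold lower in Mfn1-/- oocytes, and among all genes 12.4% and 6.88%. Past 2-fold the shares were 5.77% and 3.15% of expressed genes and 4.87% and 2.75% of all genes, and Rps4l was again the 1 ribosomal protein gene. With the median of expressed genes subtracted, Rps23 and Rpl22l1 were also past 1.5-fold, on the lower side. Just inside the threshold lay Rpl32l, Rps15, Rps20, Rpl36 and Rps3 on the higher side.

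Rps4l, a paralog of the 40S protein gene Rps4x, had the highest mean of the 86 genes over both genotypes, pseudogene copies aside. Its mean was 389 in Mfn1-/- oocytes and 185 in WT oocytes, a log2 fold change of 1.07 (0.91 relative to the median of expressed genes). Of the 1081 genes with a WT mean of 20 or more, 16 were past 2-fold higher. In GENCODE M21 (GRCm38) Rps4l lies at chr6:148354656-148355598 on the plus strand, inside Tmtc1, which is on the minus strand. It is annotated there as a transcribed processed pseudogene, yet its transcript holds an open reading frame of 262 codons, beside 263 in Rps4x. Tmtc1 itself had means of 0.0605 and 0.136, and its neighbor Ergic2 had 6.91 and 7.43, so neither of these neighbors had a higher Mfn1-/- mean.

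Rps4x, the X-linked partner, had means of 39.3 in Mfn1-/- oocytes and 35 in WT oocytes, a log2 fold change of 0.17. The pair share 80.1% of 784 aligned bases, and their longest identical run is 35 bases, shorter than the 75-base reads. The stretch in which they differ most is shown, with differing bases in capitals, since it is what lets reads be told apart. For Rps4l it is chr6:148355184-148355243 on the plus strand, and for Rps4x it is bases 475 to 534 of the coding sequence.
Rps4l: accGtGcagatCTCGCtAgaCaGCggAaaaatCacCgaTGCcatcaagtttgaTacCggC
Rps4x: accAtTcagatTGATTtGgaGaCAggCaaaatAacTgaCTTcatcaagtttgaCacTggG

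These windows differ at 20 of 60 bases. Rps4l made up 84.1% of the pair's summed means in WT oocytes and 90.8% in Mfn1-/- oocytes. With near-identical pseudogenes added to each gene, Rps4x reached 211 in WT and 241 in Mfn1-/- oocytes, and the share of Rps4l, which has no such copy, was 46.7% and 61.7%.

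**Figure D2:**
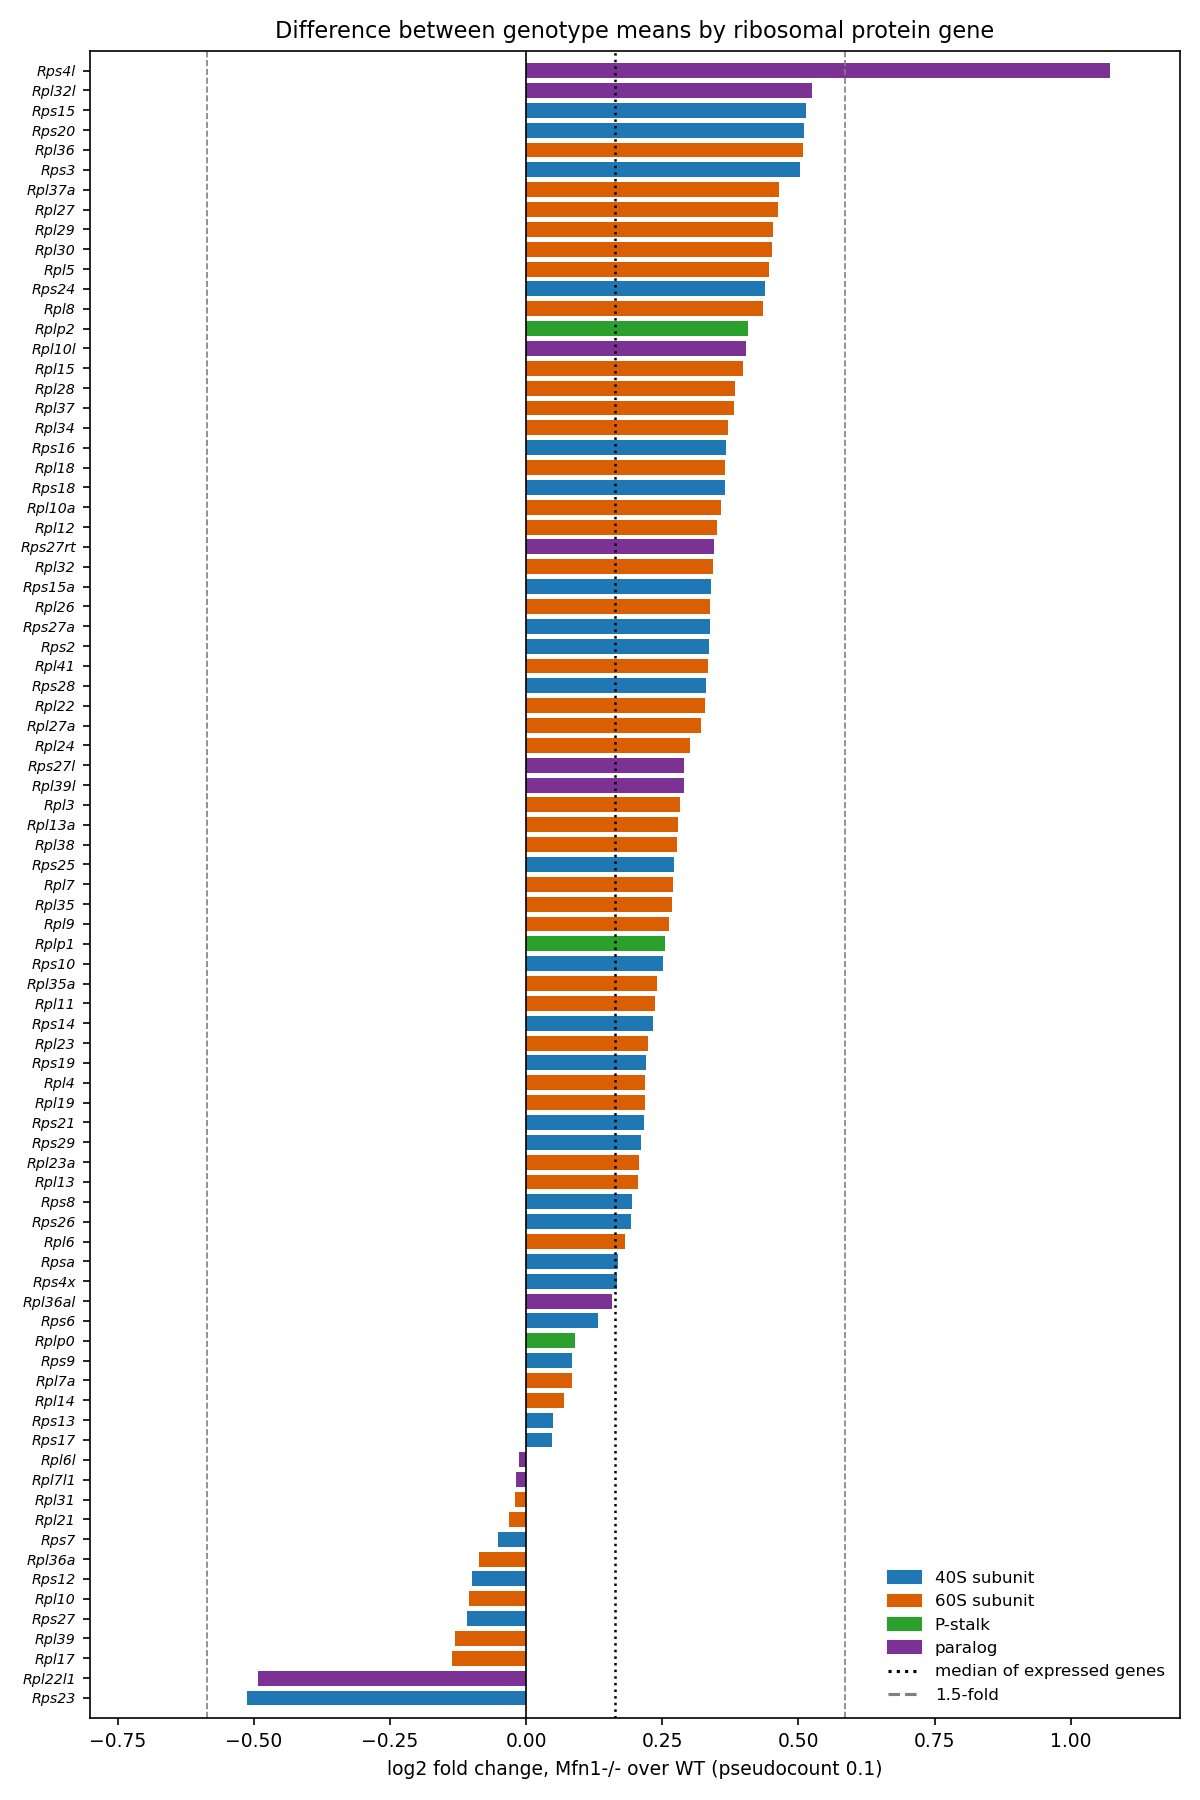
Log2 fold change of the genotype means (Mfn1-/- over WT, pseudocount 0.1) for 83 of the 86 genes, sorted, with bars colored by group; the dotted line marks the median of expressed genes (0.16) and the dashed lines 1.5-fold. Rps4l (1.07) passes the dashed line, and Rps23 (-0.51) and Rpl22l1 (-0.49) lie apart from the other lower genes, which range from -0.14 to -0.01.

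Among the 40S proteins, 26 of 30 genes had a higher Mfn1-/- mean, with a median log2 fold change of 0.22. Rps15, whose protein reaches toward the decoding site, averaged 60.6 in Mfn1-/- and 42.4 in WT oocytes (log2 fold change 0.51). Rps20, a protein of the 40S head, had 12.7 and 8.89 (0.51), and Rps3, at the mRNA entry channel, had 14.2 and 9.99 (0.50). Rps29, the most abundant of the group, had 100 and 86.4 (0.21). These 4 were higher in Mfn1-/- oocytes by amounts within the 1.5-fold limit.

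Rps6, the substrate of S6 kinase, had 18.3 and 16.7 (0.13), below the median of expressed genes. Rpsa, which also acts as a laminin receptor, had 6.45 and 5.73 (0.17), and Rps19, a gene mutated in Diamond-Blackfan anemia, had 8.41 and 7.21 (0.22). Rps27a, made as a fusion with ubiquitin, had 22.4 and 17.7 (0.34).

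Rps23 went the other way. Its protein sits at the decoding center, and its mean was 9.85 in Mfn1-/- oocytes and 14.1 in WT oocytes, a log2 fold change of -0.51. The remaining lower 40S genes were Rps7 (13.7 and 14.2), Rps12 (0.472 and 0.513) and Rps27 (0.627 and 0.684), whose means differed by far less. By its own mean, Rps12 was the least abundant of all 86 genes. Rps12-ps3, annotated as protein-coding and identical to Rps12 over 384 bases, had 62.1 and 66.8.

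Among the 60S proteins, 37 of 43 genes had a higher Mfn1-/- mean, with a median of 0.28 for the log2 fold change and an interquartile range of 0.21 to 0.38. Rpl36 had means of 49 and 34.4 (0.51), Rpl37a had 7.71 and 5.56 (0.46), and Rpl27 had 8.77 and 6.34 (0.46). Rpl29 had 36.3 and 26.5 (0.45) and Rpl30 had 13.4 and 9.77 (0.45). Rpl8, at the core of the subunit near the peptidyl transferase center, had 19.5 and 14.4 (0.43). Among the most abundant 60S genes were Rpl41, which encodes the shortest ribosomal protein, with 122 and 96.8 (0.33), and Rpl32 with 86.3 and 68 (0.34).

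Rpl5 and Rpl11, which bind 5S rRNA and as a free particle hold back MDM2, were both low. Rpl5 had 1.63 and 1.17 (0.45) and Rpl11 had 0.623 and 0.514 (0.24). Rpl3, at the peptidyl transferase center, was also low, with 0.717 and 0.572 (0.28). Lower in Mfn1-/- oocytes were Rpl17 (4.47 and 4.92, -0.14), Rpl39 (28.5 and 31.2, -0.13), Rpl10 (1.23 and 1.33, -0.10), Rpl36a (5.55 and 5.90, -0.09), Rpl21 (18.1 and 18.5, -0.03) and Rpl31 (7.96 and 8.07, -0.02), and none by more than 0.14 on the log2 scale.

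The P-stalk of the 60S subunit, which recruits the translation factors that use GTP, was higher throughout, and its members differed in size. Rplp0, the stalk's base, had 90.5 in Mfn1-/- oocytes and 85 in WT oocytes (0.09), a log2 fold change below the median of expressed genes. Rplp1 had 123 and 103 (0.26), and Rplp2 had 18.6 and 14 (0.41).

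**Figure D3:**
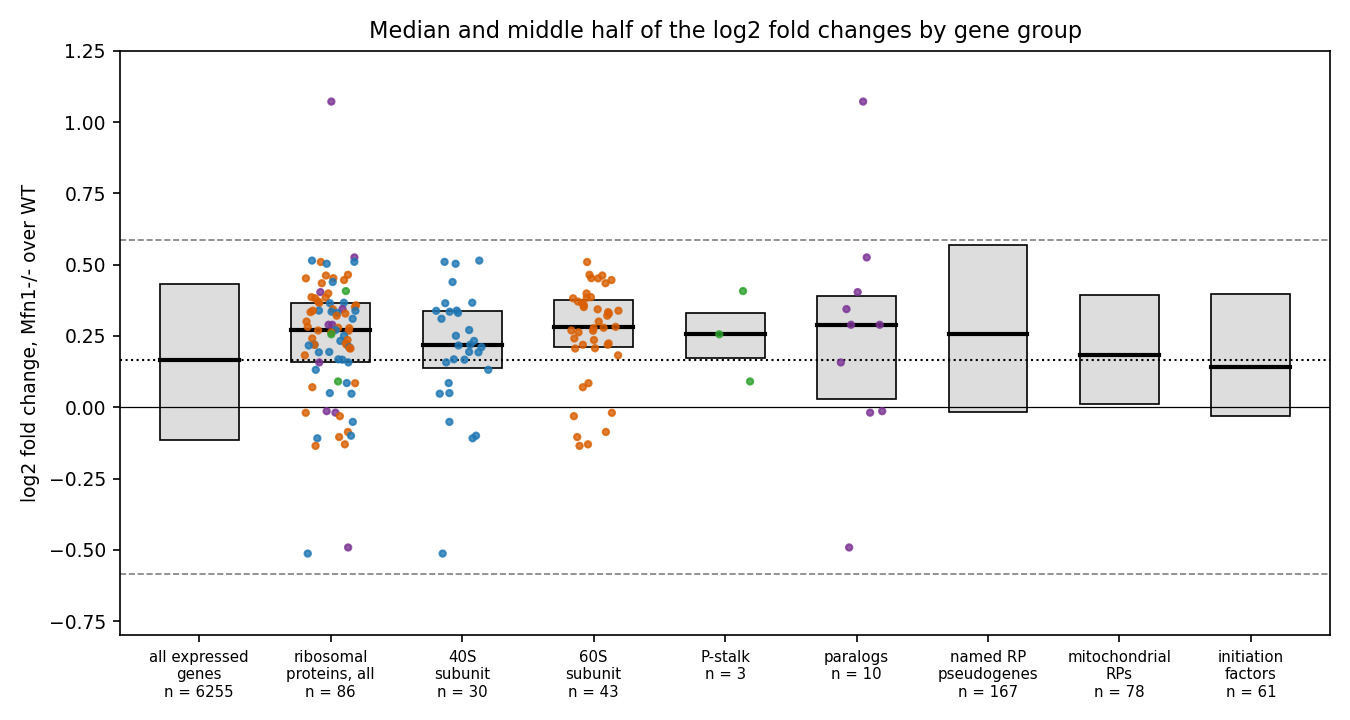
Log2 fold change of the genotype means by gene group; grey boxes span the lower to the upper quartile, thick lines mark medians, and points are single ribosomal protein genes in the colors of the other plots. The dotted line is the median of expressed genes (0.16) and the dashed lines mark 1.5-fold; the boxes of the 40S and 60S genes are narrower than those of mitochondrial ribosomal proteins, initiation factors and named pseudogenes.

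In both genotypes, 8 of the 10 paralogs had a higher mean than the gene they resemble. The exceptions were Rpl32l (5.70 in Mfn1-/- and 3.93 in WT, beside 86.3 and 68 for Rpl32) and Rpl7l1 (5.19 and 5.26, beside 32.8 and 27.2 for Rpl7). With near-identical pseudogenes added to both genes of a pair, this held for 6 pairs in Mfn1-/- and 5 in WT oocytes, since Rpl39 (315 in WT), Rpl6 (81.6) and, in WT only, Rps4x then exceeded their paralogs. Rpl10-ps3, which matches Rpl10 and is annotated as protein-coding, was not in these sums and had 239 in Mfn1-/- and 216 in WT oocytes, above Rpl10l.

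Rpl36al, the autosomal paralog of X-linked Rpl36a, was the most abundant of these genes in WT oocytes, with 223 in Mfn1-/- and 200 in WT (0.16), beside 5.55 and 5.90 for Rpl36a. Rpl10l, known for its part in male meiosis, had 16.7 and 12.6 (0.40), beside 1.23 and 1.33 for the X-linked Rpl10. Rpl39l, another paralog of an X-linked gene and known from the male germline, had 41.2 and 33.7 (0.29), beside 28.5 and 31.2 for Rpl39. In each of these 3 pairs the autosomal paralog had a higher mean in Mfn1-/- than in WT oocytes and the X-linked gene a lower one, except that relative to the median of expressed genes Rpl36al was also lower (-0.01). With the near-identical pseudogenes described further on added to each gene, the direction of the X-linked genes turned, to 60.2 and 50.0 for Rpl36a, 8.74 and 5.85 for Rpl10, and 341 and 315 for Rpl39. The summed log2 fold change of Rpl39 was 0.12, still below the median of expressed genes (0.16).

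Rps27rt had 146 in Mfn1-/- and 115 in WT oocytes (0.34), and Rps27l, described elsewhere as a p53 target, had 44.5 and 36.4 (0.29), while Rps27 had 0.627 and 0.684. Rpl6l had 41.5 and 41.9 (-0.01), beside 9.52 and 8.38 for Rpl6 (0.18). Rpl22l1 differed most among the 3 paralogs with a lower Mfn1-/- mean (beside Rpl6l and Rpl7l1), with 4.75 in Mfn1-/- and 6.72 in WT (-0.49), while Rpl22 had 2.70 and 2.13 (0.33). Rpl22l1 made up 75.9% of the pair's summed means in WT oocytes and 63.8% in Mfn1-/- oocytes.

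How far a pair can be told apart depends on its sequence, and for that reason 60 bases of 4 pairs are shown with the differing bases in capitals. Positions are counted in the coding sequence of the second gene of each pair.
Rps27rt: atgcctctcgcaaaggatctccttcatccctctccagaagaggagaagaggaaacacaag
Rps27, bases 1 to 60: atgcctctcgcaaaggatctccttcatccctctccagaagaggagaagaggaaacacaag
Rpl36al: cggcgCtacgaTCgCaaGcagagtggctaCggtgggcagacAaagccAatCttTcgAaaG
Rpl36a, bases 115 to 174: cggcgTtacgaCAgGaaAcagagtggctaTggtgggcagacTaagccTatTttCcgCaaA
Rpl10l: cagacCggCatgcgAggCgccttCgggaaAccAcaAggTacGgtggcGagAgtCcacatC
Rpl10, bases 334 to 393: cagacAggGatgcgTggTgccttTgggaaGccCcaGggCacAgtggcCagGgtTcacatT
Rpl22l1: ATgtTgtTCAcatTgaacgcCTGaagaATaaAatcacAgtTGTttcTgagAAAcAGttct
Rpl22, bases 176 to 235: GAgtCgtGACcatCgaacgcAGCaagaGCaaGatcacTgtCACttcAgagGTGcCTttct

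Rps27rt and Rps27 were identical over all 252 bases of the coding sequence, so reads inside it cannot be given to either gene. The other pairs shown differ at many bases, with 87.7% identity over 318 bases for Rpl36al, 84.7% over 642 for Rpl10l and 74.6% over 299 for Rpl22l1. Rpl6l was 98.7% identical to Rpl6 over 871 bases, with an identical run of 354 bases.

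**Figure D4:**
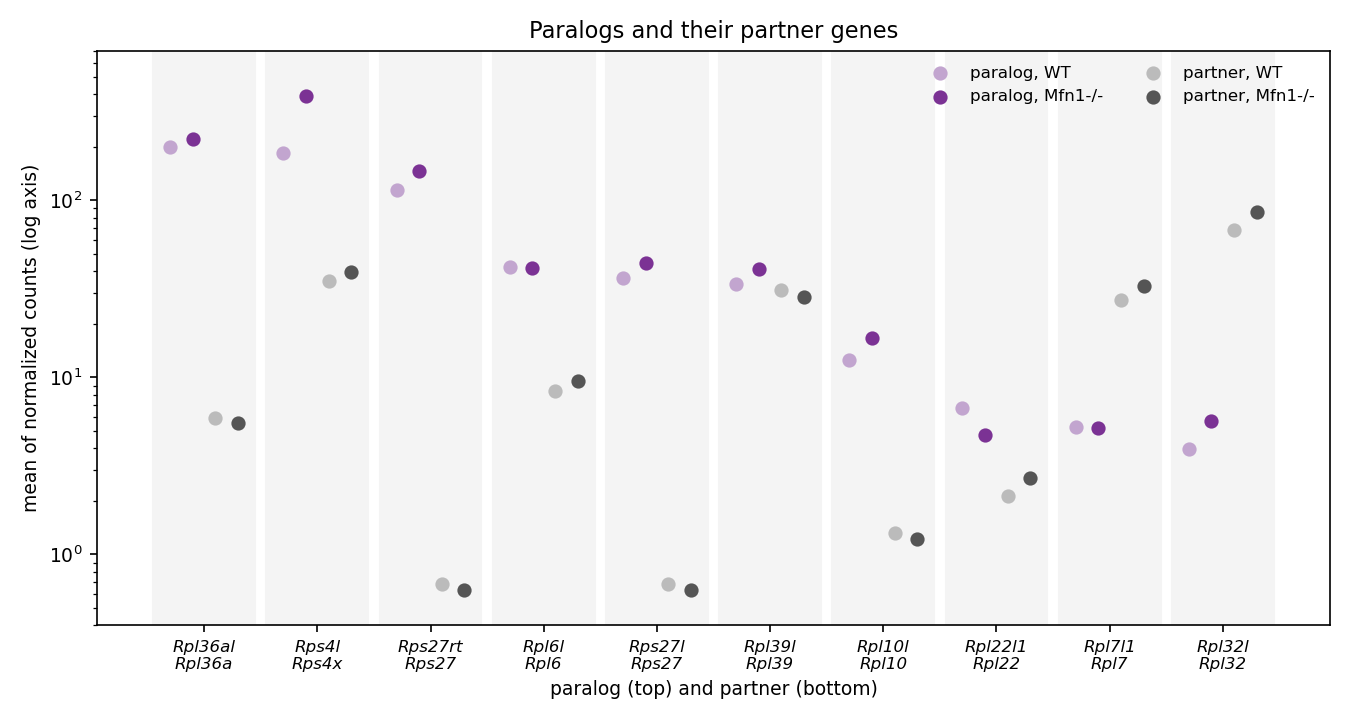
Mean of normalized counts (log axis) in WT (light) and Mfn1-/- (dark) oocytes for the 10 paralogs (purple) and their partner genes (grey), in order of the paralog's WT mean. Paralogs lie above their partners except Rpl7l1 and Rpl32l, and Rps4l shows the widest gap between the genotypes.

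Much of the ribosomal protein signal in these oocytes was recorded on pseudogenes. Pseudogenes with at least 75 bases at 95% identity or more to a member's coding sequence numbered 412, and 75 of the 86 genes had at least 1. Together they summed to 10985 in Mfn1-/- and 9144 in WT oocytes, beside 2705 and 2134 for the 86 genes themselves. In WT oocytes the pseudogenes of a gene together exceeded the gene for 61 of the 75, and the median gene held 14.2% of the total of itself and its copies. For 33 genes that share was under 10%.

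Rpl5 showed this most. Its own WT mean was 1.17, and its copy Gm15500 had 1330 in Mfn1-/- oocytes and 1130 in WT oocytes. Rpl11 had 0.514 in WT, beside 176 for Gm10288, and Rpl27 had 6.34, beside 240 for Rpl27-ps3. A further 27 near-identical genes were not annotated as pseudogenes, among them Rpl10-ps3, which matched all 642 bases of Rpl10 and had 239 in Mfn1-/- and 216 in WT, and Gm2000, which matched Rpl35 and had 673 and 549. Whether such values come from transcripts of the copies or from reads of the parent gene placed on them was not tested, so a low mean of a ribosomal protein gene here is not shown to be low expression.

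With each gene and its pseudogenes summed, the direction was much the same. The Mfn1-/- sum was higher for 76 of 86 genes and the median log2 fold change was 0.33. These counts depend on annotation, since the 27 near-identical genes not annotated as pseudogenes were left out, and counts with them were not computed. Rpl9-ps6 had 56.9 and 27.3, beside 48.1 and 32.1 for Rpl9 with its pseudogenes. Gm11361 (50.4 and 40.9) and Gm10260 (45.3 and 31) match Rps18, whose sum was lower, at 13.3 and 14.1. Rps20 with its copy Gm4332 reached 94.7 and 58.5 (0.69), and Rps24 with its copies reached 97.5 and 64.3 (0.60). These and Rps4l, which has no such copy, were past 1.5-fold higher. Rps27 with Gm11572, at 0.666 and 1.83 (-1.34), was past 1.5-fold lower, with Rps27rt counted apart. This call rests on a tie. The coding sequences of Rps27 and Rps27rt are identical, so Gm11572 (0.0392 and 1.15) matches both equally and went to Rps27 by order of name. Rps27rt had 146 and 115. Rps23 with its copies stayed lower, at 137 and 164 (-0.27), as did Rpl22l1 at 10.2 and 13.9 (-0.45). For 64 of the 75 genes with copies, gene and copies differed between genotypes in the same direction (Spearman's rho of 0.64 across genes, which share libraries and possibly reads).

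No pseudogene of this kind was assigned to 11 genes, of which 7 are paralogs. These paralogs include Rps27rt, Rpl6l and Rpl32l, which share long runs with their partner genes. The others include Rps3 (0.50), Rpl8 (0.43) and Rpl41 (0.33), and each of these 3 had the higher mean in Mfn1-/- oocytes. Other overlaps remain, since 31 of the 86 genes overlap another gene, 24 of them only on the opposite strand, and the strand setting of the counting is not given in the sources used here.

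**Figure D5:**
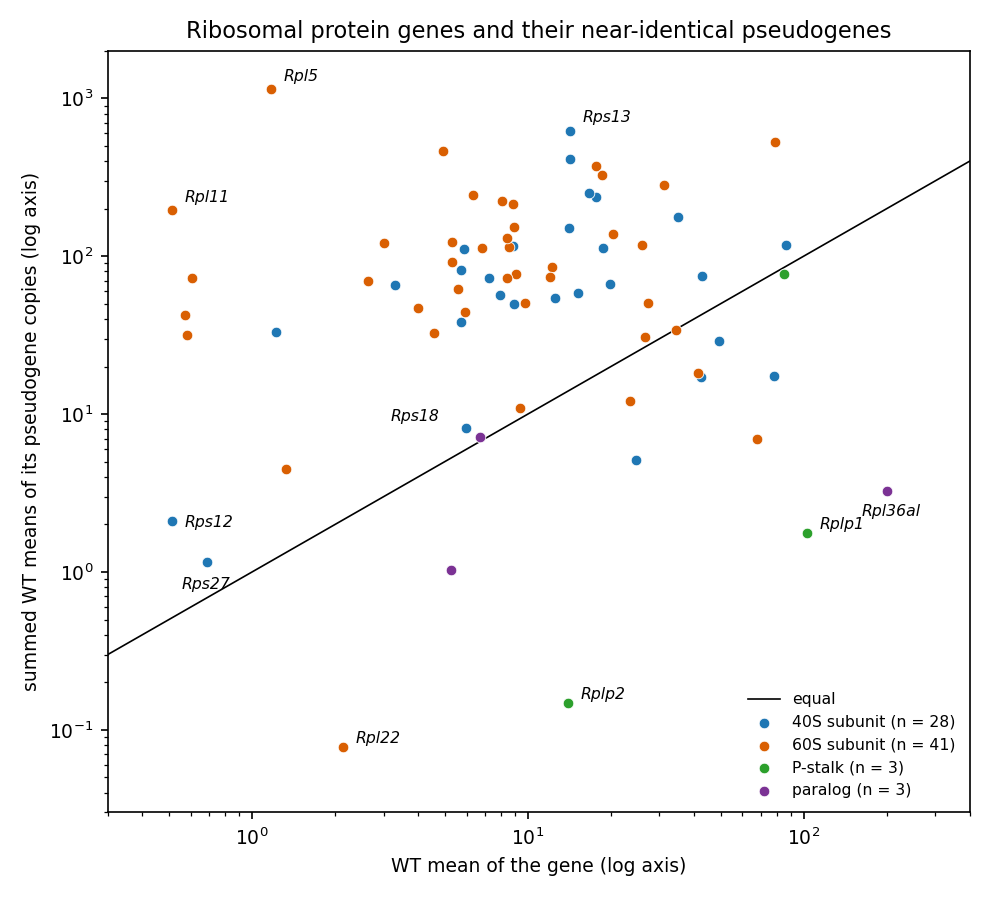
Summed WT means of the near-identical pseudogenes of each gene against the WT mean of the gene itself, on log axes, for the 75 genes with at least 1 such pseudogene; the line marks equality. Most points lie above the line, with Rpl5 (1.17 against 1140 for its copies) farthest from it, while Rplp1, Rplp2, Rpl22 and Rpl36al lie below.

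Together the 86 genes made up 1.90% of the summed means in Mfn1-/- oocytes and 1.64% in WT oocytes, a ratio of summed means of 1.27. Without Rps4l the shares were 1.62% and 1.50% and the ratio was 1.19. The summed means of all genes were themselves 1.10 times as high in Mfn1-/- oocytes.

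Mitochondrial ribosomal proteins and translation initiation factors were set beside the cytosolic genes as the groups nearest in function. Of 78 mitochondrial ribosomal protein genes, 59 had a higher Mfn1-/- mean and 7 (8.97%) were past 1.5-fold higher, beside 12.4% of all genes. Their median log2 fold change was 0.18, or 0.02 above that of expressed genes, and 0.20 over the 70 that were expressed. Of 61 initiation factor genes, 42 were higher and 8 (13.1%) were past 1.5-fold higher. Their median was 0.14 over all 61 genes and 0.21 over the 49 expressed ones, beside 0.16 for expressed genes. No gene of either group was past 1.5-fold lower. Their interquartile ranges had widths of 0.38 and 0.43, against 0.21 in the cytosolic genes. The list of further TOP mRNAs, described below, came nearer to the cytosolic genes, with a width of 0.25. The 167 named ribosomal protein pseudogenes had a median of 0.26, and 121 were higher.

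Genes of the machinery that builds ribosomes were read against the 15.9% of expressed genes past 1.5-fold higher and the 7.48% past 1.5-fold lower, and most of the lists hold few genes. Of 15 expressed genes of RNA polymerase I transcription, 3 were past 1.5-fold higher (20%) and 0 lower. These were the polymerase subunits Polr2h (12.5 in Mfn1-/- and 5.27 in WT) and Polr1c (8.28 and 4.39), and Ubtf (2.02 and 1.18), which opens rDNA for transcription. Of 32 genes of 40S assembly, 1 was past it in each direction, with Imp3, of the U3 particle, at 142 and 87.5, and Rcl1, of the small subunit processome, at 0.736 and 1.65. Of 36 genes of 60S assembly and export, 6 were past 1.5-fold higher (16.7%, near the background) and 0 past 1.5-fold lower. The 6 were led by Rrs1 (2.27 and 0.559), which brings the 5S particle into the subunit, Nop16 (2.84 and 1.12) and Bop1 (1.33 and 0.737).

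Of 11 genes for ribosomal protein chaperones, importins and related factors, 3 were past 1.5-fold higher, or 27.3% beside 15.9% of expressed genes. Tsr2, the chaperone of RPS26, had 4.27 and 1.59, Grwd1, that of RPL3, had 5.18 and 1.96, and Aamp had 12.7 and 7.99. Their clients were nearer to level, with Rps26 at 14.3 and 12.5 (0.19) and Rpl3 at 0.28 as above.

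Of 20 further TOP mRNAs, 3 were past 1.5-fold higher (15%, near the background) and 0 lower. Among them were Hspa8 (159 and 87), a constitutive HSP70, and Rack1 (25.4 and 16.7), a scaffold bound to the 40S subunit. Over all 26 listed TOP mRNAs, expressed or not, 23 had the higher Mfn1-/- mean, with a median log2 fold change of 0.28. Their interquartile range had a width of 0.25, and 76.9% lay within 0.25 of their own median. The cytosolic ribosomal protein genes had nearby values, with a median of 0.27, a width of 0.21 and 82.6%. Of 6 regulators of TOP mRNAs and S6 kinase, 2 (33.3%) were past 1.5-fold higher, beside 15.9% of expressed genes. These were Eif4ebp1 (2.92 and 0.516), which holds back eIF4E, and Rps6kb2 (2.07 and 1.12), a kinase of RPS6.

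Of 10 elongation and termination factors, 0 were past 1.5-fold in either direction. Eif5a had 84.3 and 62.1, Eef2 had 9.87 and 7.54, and Eef1a1, the carrier of aminoacyl-tRNA, had 35.2 and 32. Of 11 genes for ribosome-bound and quality control proteins, 3 (27.3%) were past 1.5-fold higher, beside 15.9% of expressed genes. Among these 3 were Ufc1, the UFMylation enzyme that acts on RPL26, at 10.7 and 3.95, and Rack1. Of 4 expressed genes of the ribosomal stress and p53 axis, 1 was past 1.5-fold higher (25%) and 1 lower, beside 15.9% and 7.48% of expressed genes. Nop53 was higher at 2.49 and 1.32, and Mdm4, an inhibitor of p53, was lower at 12.4 and 25.9. Mdm2 had 2.76 and 2.22, and Trp53 had 2.19 and 1.85. Over all 11 listed genes, most with a mean below 1, 5 (45.5%) were past 1.5-fold higher and 1 lower, beside 12.4% and 6.88% of all genes.

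The libraries carried the signs of their labels. Mfn1 had a mean of 0.0577 in Mfn1-/- oocytes and 0.616 in WT oocytes. All 16 oocyte markers were present, with summed means of 4558 and 4138. Of 15 granulosa cell markers 13 were listed, with summed means of 3.24 and 3.48. Most of these sums came from Inha (1.87 and 0.954) and Esr2 (0.929 and 1.86), which differed in opposite directions. Of the 13, 3 had the higher Mfn1-/- mean and 10 the lower one, with median levels of 0.0412 and 0.0456. Of 10 theca and stromal markers 5 were listed, summing to 0.210 in each genotype. Of 10 blood and immune markers 6 were listed, with sums of 7.83 and 1.02, of which Cd68 made up 7.58 and 0.672. The part of other cells in the ribosomal protein values was not tested.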

How the data were processed

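RNA-seq was done by the authors on secondary follicle-enclosed oocytes with Smart-Seq2 amplification of poly(A) RNA and Nextera XT libraries, sequenced as 75 bp paired reads. Per the labels and the methods, reads were trimmed with Cutadapt, filtered with the FASTX-Toolkit, checked with FastQC, aligned with STAR to GRCm38/mm10 and compared with DESeq2. The authors deposited, for each gene, a signal: 1 average of normalized counts for WT, 1 for Mfn1-/- and a total. In 100% of the 22877 genes the total came within 1% of adding 4 WT and 3 Mfn1-/- averages, so the averages cover 7 libraries. The lowest mean was 0.01. How counts were normalized, how reads matching several genes were counted, and the strand setting are not given in the sources used here. The deposited p-value and FDR columns, the ratio of the means and a signed fold change score hold the authors' own comparison and were not used. No values per library were used, so the planned limma test could not be fitted and depth and replicate spread are unknown. There were 0 unused columns of per-sample values.

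The log2 fold change was computed as log2 of the Mfn1-/- mean plus 0.1 over the WT mean plus 0.1. A difference past 1.5-fold means past 0.58 on that scale. Expressed genes, with an average of the genotype means of 1 or more (6255), served as background. Gene types and positions came from GENCODE M21 (GRCm38), in which all 86 genes were found, and promoters from RefSeq. Coding sequences were compared with all transcripts of other genes by blastn 2.17.0 (at least 75 bases and 95% identity). Each gene was given to its best match, with ties settled by order of name. Paralog pairs were aligned with Biopython 1.88. Full values were given for the 10 most abundant genes, the 10 highest and 10 lowest fold changes with a mean of at least 1, the paralogs with their partners and the P-stalk, and for up to 3 higher and 3 lower genes of each companion list. Other ribosomal protein genes were named as needed, and a few genes are not reported here. The code was tested on simulated data. Scripts ran in Python 3.11.15 (pandas 2.3.3, numpy 2.4.6, matplotlib 3.10.9, scipy 1.17.1). The genes and lists were chosen with earlier results of these data known.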

Additional observations from a re-analysis of the deposited data

How the results depend on the processing

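Of the 86 genes, the count with a higher Mfn1-/- mean (73) moved by less than 1.5 times under every setting that could change it, with 67 after scaling both genotypes to the same sum, 64 after subtracting the median of expressed genes, and 76 with pseudogene copies summed. The number past 1.5-fold (1) became 3 under either scaling, 1 higher and 2 lower. It became 0 without the paralogs, without Rps4l or among genes annotated as protein-coding, and 4 with copies summed, where the call for Rps27 rests on a tie with Rps27rt. The 86 genes' median (0.27, log2) became 0.28 with a pseudocount of 0.01 or none, 0.23 with 1, 0.14 with equal sums, 0.11 relative to the median of expressed genes, and 0.33 with copies summed. For mitochondrial ribosomal proteins (0.18) it was 0.19 with a pseudocount of 0.01 or none, 0.16 with 1, 0.057 with equal sums, 0.020 relative to that median, and 0.20 for expressed genes. The share of summed means (1.90% in Mfn1-/- and 1.64% in WT) was 2.17% and 1.88% without the 10 most abundant other genes, 1.62% and 1.50% without Rps4l, which is the most abundant ribosomal protein gene, and 9.60% and 8.66% with copies summed. Expressed genes past 1.5-fold numbered 993 higher and 468 lower, and 637 and 684 after subtracting their median, or 706 and 632 with equal sums. Settings without a pseudocount, without Rps4l, for protein-coding genes and with copies summed were chosen after seeing the data. No paired analysis was possible because the table gives 1 mean per genotype, and for the same reason leaving out each library in turn was not run. The cause of these shifts was not tested.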

Other observations

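After the values were seen, the genes were grouped by chromosome. The 4 X-linked genes had a median log2 fold change of -0.10, and 3 of them (Rpl39, Rpl10 and Rpl36a) had the lower mean in Mfn1-/- oocytes, while Rps4x had the higher one (0.17). Of the 82 autosomal genes, 72 had a higher Mfn1-/- mean, with a median of 0.28. Expressed genes had a median of 0.14 on the X chromosome (238 genes) and 0.17 elsewhere (5836 genes). With pseudogene copies summed, each of the 4 X-linked genes had the higher sum in Mfn1-/- oocytes, with Rpl10 at 8.74 and 5.85, Rpl36a at 60.2 and 50.0, Rpl39 at 341 and 315, and Rps4x at 241 and 211, in that order of genotypes. For Rpl39 the summed log2 fold change was 0.12, still below the median of all expressed genes (0.16). All 14 genes on chromosome 7 had the higher mean in Mfn1-/- oocytes, with a median of 0.32. Of these, 10 lay above the median of expressed genes, beside 64 of all 86 genes. Chromosomes 9 (8 genes) and 11 (7 genes), among others, also had no gene with a lower mean.

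Some copies differed more between genotypes than the genes they resemble. Rpl9-ps6, annotated as protein-coding, had 56.9 in Mfn1-/- and 27.3 in WT oocytes, a log2 fold change of 1.06, while Rpl9 had 0.26. Gm2174, which matches Rps23 and is also annotated as protein-coding, had 0.517 and 3.02 (-2.34), beside -0.51 for Rps23, and Rps23-ps1 had 95.1 and 96.6. Rpl37rt had 90 and 91.7, while Rpl37 had 6.95 and 5.31. Both pairs share near-identical sequence, and the placement of reads between their members was not tested.

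Annotation also splits the genes. Besides Rps4l, GENCODE M21 lists Rpl6l and Rpl32l as processed pseudogenes. The Rpl32l transcript of 399 bases holds a frame of 133 codons without a stop, beside 135 codons in Rpl32. In the Rpl6l transcript of 871 bases the longest complete frame is 11 codons, beside 296 in Rpl6. These counts are of unlike kinds, since a complete frame has to end in a stop and the frame given for Rpl32l has none. The count for Rpl6l therefore does not show that the frame it shares with Rpl6 is lost.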
